A study of Homo sapiens with 4 samples.

Results

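The genes described here are the subunits of the vacuolar proton pump (V-ATPase) and a set of lysosomal enzymes and membrane proteins, 37 gene names in all. They were chosen by name, not by any measured value. Of these, 36 had rows in the deposited tables, among 14355 gene names in all, and GAA was not analysed here. The 36 fall into 8 subunits of the V1 sector, 8 subunits of the V0 sector and its accessory proteins, 13 hydrolases and other soluble lysosomal proteins, and 7 proteins of the lysosomal membrane.

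The data are ribosome footprints, the mRNA fragments that translating ribosomes protect, from wild-type cells of the immortalised human skin melanocyte line Hermes 4B. The cells had received an siRNA against CDH3-AS1, an RNA antisense to the P-cadherin gene CDH3, or a control siRNA, each at 25 to 50 nM. All cells were grown with TPA, endothelin-1, cholera toxin and stem cell factor, and both siRNAs were delivered with the same reagent. Batch 1 and batch 2 each hold 1 library per siRNA, so n = 2 for each siRNA, all from 1 cell line. The labels do not say whether cultures were separate, and a p-value here measures the spread among 4 libraries, which may be technical.

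The V-ATPase is a rotary motor. Its soluble V1 sector hydrolyses ATP and turns a shaft, and the membrane-embedded V0 sector uses that rotation to carry protons into the lumen of lysosomes and related organelles. The acid it makes is needed by lysosomal hydrolases, and V1 can detach from V0 and bind again, which switches the pump off and on. In melanocytes the same pump also acidifies melanosomes, the lysosome-related organelles in which pigment is made. Many lysosomal genes carry in their promoters the palindromic E-box CACGTG, often within the longer GTCACGTGAC, which is bound by the MiT/TFE transcription factors, a family that includes MITF, the melanocyte regulator.

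The promoters of 26 of the 36 genes were listed by RefSeq (GRCh38.p14), as windows from 250 bases before to 50 bases after the gene's start. CACGTG, which reads the same on both strands, was found in 9 of these 26 (34.6%), against 13.1% of the 8523 promoters of all genes tested and 8.77% of 27305 promoters listed. The longer palindrome GTCACGTGAC, which contains the shorter motif, was found in 2 of the 26 (7.69%), ATP6V1G1 and MCOLN1, against 1.01% of promoters of the tested genes. The 5 stretches of 60 bases below lie upstream of the gene's start, with every CACGTG in capitals. They were chosen to set the promoter of ATP6V1G1, of the 36 the one with the lowest fold change between siRNAs, beside those of a V0 subunit, a hydrolase and membrane proteins that hold the same letters.
ATP6V1G1, chr9:114587684-114587743, plus strand: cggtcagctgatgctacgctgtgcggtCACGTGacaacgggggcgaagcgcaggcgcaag
ATP6V0D1, chr16:67481184-67481243, minus strand: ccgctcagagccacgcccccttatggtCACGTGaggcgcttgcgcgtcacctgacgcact
CTSD, chr11:1763942-1764001, minus strand: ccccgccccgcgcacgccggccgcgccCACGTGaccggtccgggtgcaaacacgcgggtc
LAMP1, chr13:113297036-113297095, plus strand: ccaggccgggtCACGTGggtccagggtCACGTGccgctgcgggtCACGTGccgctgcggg
MCOLN1, chr19:7522564-7522623, plus strand: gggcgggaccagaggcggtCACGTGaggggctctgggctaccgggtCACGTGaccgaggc
LAMP1 held 6 copies of CACGTG in its whole promoter window, of which 3 are shown. The other 4 promoters with the motif were those of ATP6V0B, CTSA, CLCN7 and CD63. A match is only a run of letters, and no binding was measured.

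The libraries held 6759850 and 2858835 reads with CDH3-AS1 siRNA, against 2034854 and 5994485 reads with control siRNA, in batches 1 and 2. All 11 melanocyte markers had reads in every library. The control library of batch 1 stood apart. Its summed level of skeletal muscle markers was 4211 CPM, with 15 of 18 markers read, against 5.36 to 17.5 CPM in the other 3 libraries, and its fibroblast markers summed to 507 CPM, against 0.711 to 5.20 CPM. ATP6V1G1, the V1 median, CTSB, LAMP1 and MCOLN1 are also given without that library, and each value within batch 2 leaves it out. CDH3 was at 180 and 198 CPM with CDH3-AS1 siRNA, against 288 and 321 CPM with control siRNA. CDH3-AS1 itself was not analysed here.

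CPM, which compares libraries, is a gene's coding-sequence read count scaled to the library's total of such reads over the genes tested, after TMM scaling. Marker sums and the floor of 3 reads were instead scaled to all coding-sequence reads of the library, without TMM. CPM per kb, which compares genes, divides this by the longest coding sequence listed for the gene. Where most reads lie on a transcript with a shorter coding sequence, as for CD63 and ATP6V1F, the level is understated. At 3 reads a gene would stand at 0.473 and 1.15 CPM with CDH3-AS1 siRNA and at 1.63 and 0.533 CPM with control siRNA, in batches 1 and 2. The least-read member, CTSB, had 60 reads or more in every library, so every member lay above that floor.

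The genes were among the more heavily translated of these cells. Their median level over the 4 libraries was 307 CPM per kb, against 24.7 CPM per kb for all 10469 genes tested. PSAP, whose product is cut into the saposins that help lysosomal enzymes act on lipids, ranked highest, with 3703 and 3917 CPM per kb with CDH3-AS1 siRNA and 3585 and 3718 CPM per kb with control siRNA. CD63, a tetraspanin of lysosomes and melanosomes, came next with 2926 and 3749 CPM per kb, against 2932 and 5096 CPM per kb. The order of this pair is not settled, since the libraries of CD63 spread across all those of PSAP.

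**Figure D1:**
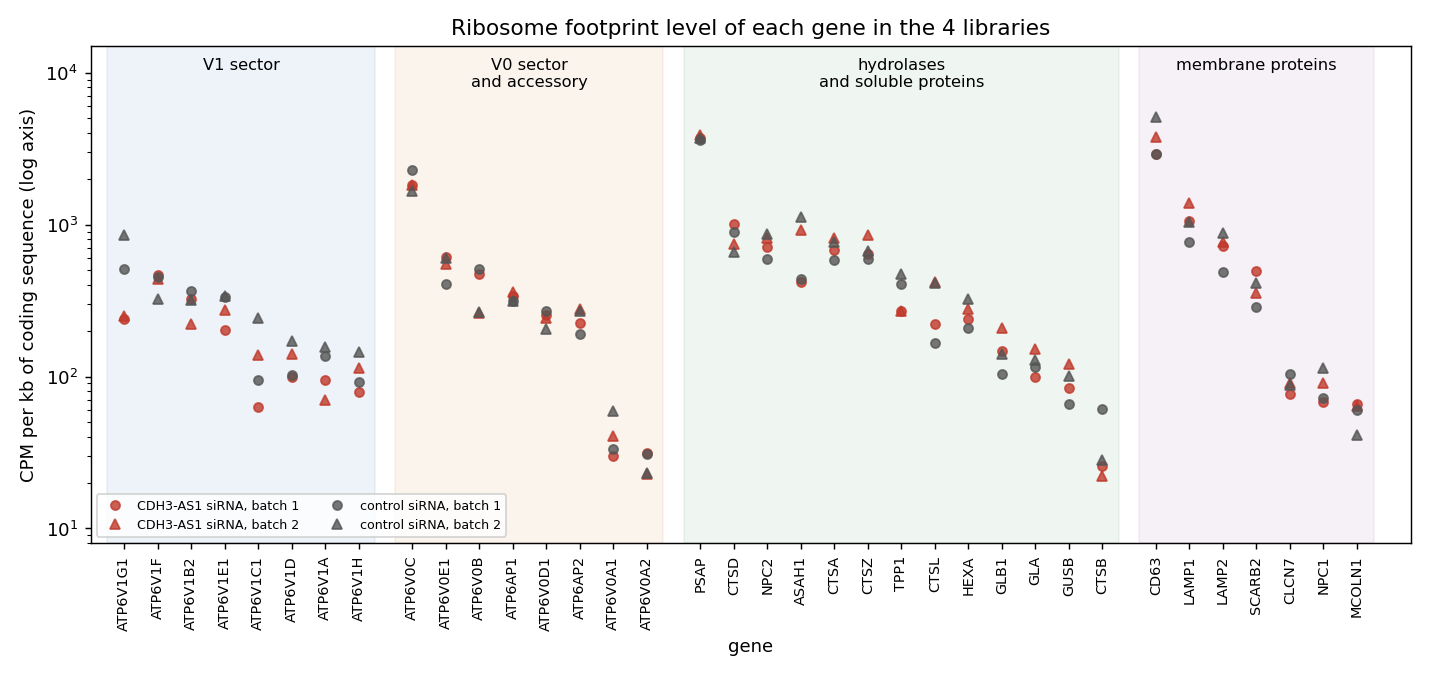
Footprint level of the 36 genes in CPM per kb of coding sequence (log axis), by sector and ordered by mean level. Circles are batch 1 and triangles batch 2, red for CDH3-AS1 siRNA and grey for control siRNA. PSAP, CD63 and ATP6V0C lie highest, and the 2 listed isoforms of the V0 subunit a lie near the bottom with CTSB.

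Within V0, levels per length ran from ATP6V0C to ATP6V0A2. ATP6V0C, the proteolipid that forms most of the proton-carrying ring, had 1822 and 1815 CPM per kb with CDH3-AS1 siRNA, against 2274 and 1665 CPM per kb with control siRNA. ATP6V0A2, 1 of the isoforms of subunit a that holds the channels for protons, had 31.5 and 22.9 CPM per kb, against 30.7 and 23.2 CPM per kb. The ring is built of several copies of the proteolipid, beside a lone a and a lone d subunit. Per length, ATP6V0C stood 7.13 and 7.45 times as high as ATP6V0D1, the d subunit, with CDH3-AS1 siRNA and 8.42 and 8.14 times as high with control siRNA. ATP6V0A1 averaged 40.7 ± 13.1 CPM per kb over the libraries (SD, n = 4) and ATP6V0A2 27.1 ± 4.66. Both lay below ATP6V0D1, which averaged 243 ± 28.1, and whether levels follow copy number was not tested. TCIRG1, the a isoform best known from osteoclast lysosomes and not among the 36 genes, averaged 40.4 ± 4.38 on the same scale. Pooled over the libraries, ATP6V0A1 and TCIRG1 did not differ beyond their spread, but their order turned with the batch. With CDH3-AS1 siRNA and control siRNA, ATP6V0A1 stood at 0.776 and 0.710 times TCIRG1 in batch 1, against 1.109 and 1.499 times in batch 2. In the same order, ATP6V0A1 stood at 0.955 and 1.08 times ATP6V0A2, against 1.76 and 2.55 times. The batch difference in these ratios was not tested. RefSeq lists 4 numbered pseudogenes each for ATP6V0C and ATP6V0E1, and the counts of such genes are uncertain where the counting shared reads with copies. Such pseudogenes are also listed for GUSB (19), ATP6V1G1 (7), CTSL (6), ATP6V1E1 (3), ATP6V1F (1) and LAMP1 (1).

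Levels of the V1 subunits were closer to each other, with means between 107 CPM per kb for ATP6V1H and 464 CPM per kb for ATP6V1G1. ATP6V1F averaged 421 CPM per kb over 444 bases, though nearly all its reads lay on a coding sequence of 360 bases. Which V1 subunit stood highest is therefore not settled. The isoforms known from kidney or other specialised tissues had few reads, with at most 5 reads in a library for ATP6V1B1 and 4 for ATP6V1E2. ATP6V1C2, ATP6V1G2 and ATP6V1G3 were not analysed here. ATP6V1H, the regulatory subunit that V1 needs for ATP-driven pumping, had 78.8 and 114 CPM per kb with CDH3-AS1 siRNA, against 92.5 and 145 CPM per kb with control siRNA. The groups overlapped, and in each batch the library with CDH3-AS1 siRNA was the lower.

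In the comparison of CDH3-AS1 siRNA with control siRNA, the V1 sector was the only sector in which nearly all genes pointed 1 way. Footprints of 7 of its 8 subunits were lower with CDH3-AS1 siRNA in both batches, and those of ATP6V1F were higher in both. Over all genes tested 27.8% were lower in both batches and 26.5% were higher in both. The median log2 fold change of the V1 sector was -0.41 (-0.38 within batch 1 and -0.44 within batch 2), against -0.03 for all genes tested, and -0.33 without ATP6V1G1. It was -0.52 without the control library of batch 1 that holds muscle transcripts, and ranged from -0.61 without the CDH3-AS1 siRNA library of batch 2 to -0.20 without the control library of batch 2. V1 reads summed to 1363 and 1371 CPM with CDH3-AS1 siRNA, against 1744 and 2080 CPM with control siRNA, while V0 and accessory reads summed to 2498 and 2392 CPM, against 2643 and 2274 CPM. The ratio of V1 to V0 was thus 0.546 and 0.573 with CDH3-AS1 siRNA, against 0.660 and 0.915 with control siRNA. The V1 sums did not overlap between the siRNAs and the V0 sums did, but 2 libraries against 2 cannot give an exact permutation p below 0.333, and no test was made on these sums. Since all values are bulk, a smaller share of cells making V1 subunits and fewer V1 footprints per cell cannot be told apart.

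Tested over all 10469 genes with edgeR's quasi-likelihood method, no gene was called in this comparison (0%, with adjusted p at 0.05 as the threshold), and so 0 of the 36 were. At an unadjusted p of 0.05, 225 genes passed, 2 of them among the 36, and DESeq2 called 2 genes, none of them among the 36. Libraries of the same number share a batch. With the batch as a replicate block, edgeR called 170 genes (1.62%), 97 higher and 73 lower, and 2 of the 36, ATP6V1G1 and ATP6V1A, both lower. That model keeps 1 residual degree of freedom per gene, so its variance comes mainly from the spread over all genes.

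ATP6V1G1 encodes a subunit of the peripheral stalks, which hold the V1 head still while the shaft turns. It lies at chr9:114587769-114598879. It had 86.0 and 89.3 CPM with CDH3-AS1 siRNA, against 183 and 303 CPM with control siRNA, from 543 and 226 reads against 344 and 1715 reads. Both libraries with CDH3-AS1 siRNA lay below both controls and close together, while the controls differed from each other. Group means were 87.6 ± 2.30 CPM with CDH3-AS1 siRNA and 243 ± 84.7 CPM with control siRNA (SD, n = 2 each). The log2 fold change was -1.48 (SE 0.37) in edgeR without the block, with an adjusted p of 1.00. With the replicate block it was -1.43 (SE 0.26, edgeR adjusted p = 2.14e-05), and it was -1.09 within batch 1 and -1.76 within batch 2. The block made the same call in DESeq2 (adjusted p = 0.00248) and in limma on log2(RPKM + 1) (adjusted p = 0.00768). Its 3 transcripts with reads were all lower in both batches, by differences on the log2 scale from -0.65 to -1.38 in batch 1 and from -1.28 to -2.13 in batch 2, although their coding sequences may share reads. RefSeq lists 7 numbered pseudogenes of ATP6V1G1, so its count is uncertain to the extent that reads were shared with them. Without the control library of batch 1 the log2 fold change was -1.76, and without that of batch 2 it was -1.05.

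ATP6V1A is the catalytic subunit, which binds and splits ATP in the V1 head. It lies at chr3:113747035-113812056. It had 175 and 130 CPM with CDH3-AS1 siRNA, against 253 and 291 CPM with control siRNA, from 1105 and 328 reads against 474 and 1647 reads. The siRNA groups did not overlap, with means of 152 ± 32.2 CPM with CDH3-AS1 siRNA and 272 ± 27.2 CPM with control siRNA (SD, n = 2 each). The log2 fold change was -0.84 (SE 0.34, edgeR adjusted p = 1.00) without the block. It was -0.85 (SE 0.25, edgeR adjusted p = 0.0472) with it, and -0.53 within batch 1 and -1.17 within batch 2. This call lay close to the threshold and was lost with the block in DESeq2, in limma and with the most-read transcript in place of the sum.

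**Figure D2:**
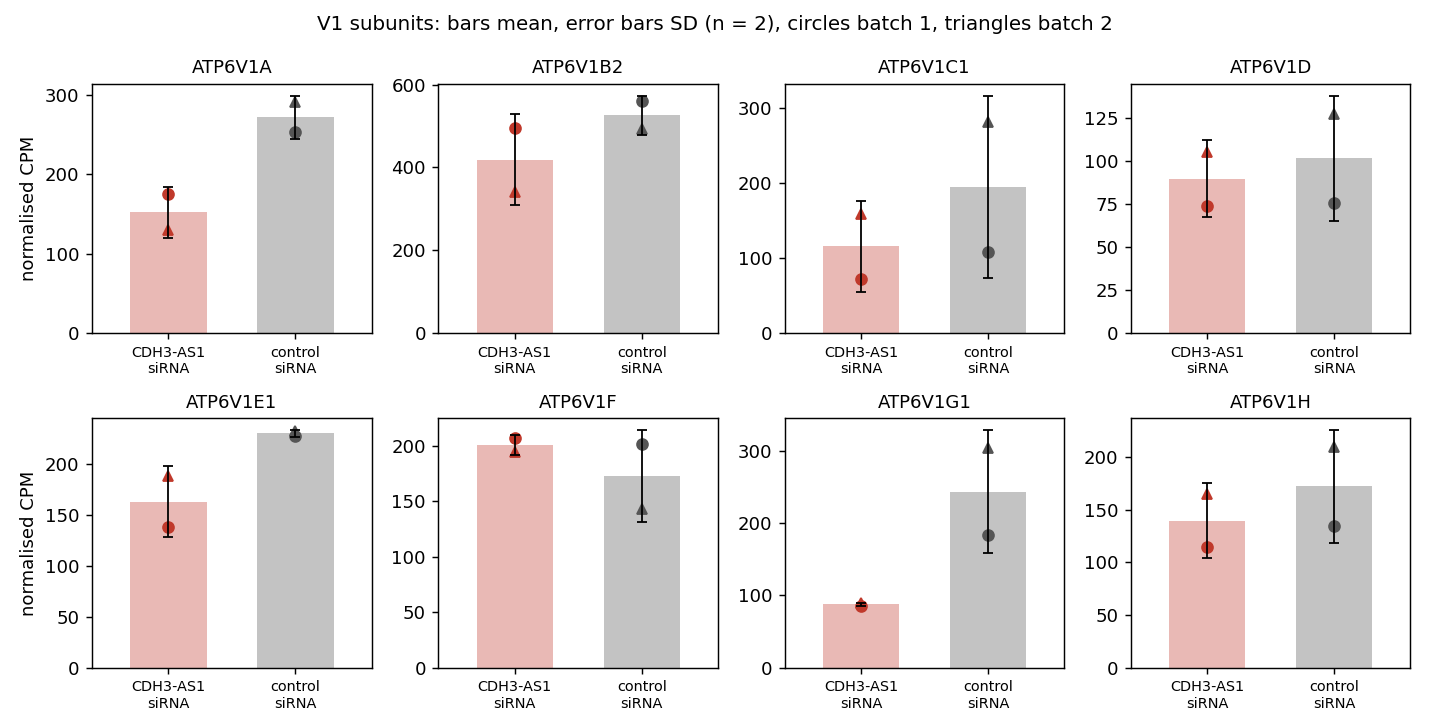
Normalised CPM of the 8 V1 subunits with CDH3-AS1 siRNA (left, red) and control siRNA (right, grey). Bars are means, error bars SD (n = 2), circles batch 1 and triangles batch 2. ATP6V1G1, ATP6V1A and ATP6V1E1 show no overlap between the siRNAs, and ATP6V1F is the subunit that is higher with CDH3-AS1 siRNA in both batches.

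The other V1 subunits passed no test. ATP6V1E1, the partner of ATP6V1G1 in the peripheral stalks, had 138 and 188 CPM with CDH3-AS1 siRNA, against 227 and 232 CPM with control siRNA (log2 fold change -0.50, SE 0.33). ATP6V1C1, which ties the stalks to subunit a of V0, had 72.5 and 158 CPM, against 108 and 280 CPM, and its value depended more on the batch than on the siRNA. For ATP6V1B2, the non-catalytic partner of ATP6V1A in the head, the log2 fold change was -0.33 (SE 0.35). For the shaft subunits it was -0.19 (SE 0.39) in ATP6V1D and 0.22 (SE 0.33) in ATP6V1F. ATP6V1E1 and ATP6V1C1 were singled out after their values had been seen.

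Both CDH3-AS1 siRNA libraries lay below both controls for 5 of the 36 genes, against 14.1% of all genes tested, and above both for 4 of the 36, against 13.3%. Those shares of the 36 are close to the background, so the counts are no result about the genes as a whole. The 5 lower genes were ATP6V1A, ATP6V1E1, ATP6V1G1, CTSB and TPP1, and the 4 higher ones ATP6AP1, LAMP1, GLB1 and MCOLN1. None of the V0 subunits proper was in either group.

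In V0 the log2 fold changes between siRNAs ran from -0.40 for ATP6V0A1 to 0.20 for ATP6V0E1, with a median of 0.05. ATP6V0C, the ring proteolipid, had 853 and 849 CPM with CDH3-AS1 siRNA, against 1064 and 779 CPM with control siRNA, and its 2 controls bracketed the other libraries. ATP6AP1, an accessory protein needed for V0 assembly, had 478 and 512 CPM, against 443 and 445 CPM. The difference (log2 fold change 0.16, SE 0.31) passed no test, and ATP6AP1 was described with its values known.

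The hydrolases and soluble proteins had a median log2 fold change of 0.07. In both batches 7 of the 13 were higher and 3 were lower, against 26.5% and 27.8% of all genes tested. PSAP, with 5832 and 6169 CPM with CDH3-AS1 siRNA, against 5646 and 5856 CPM with control siRNA, was the steadiest gene of the 36 across libraries, the highest library standing 1.09 times above the lowest. GLB1, the lysosomal beta-galactosidase, had 301 and 424 CPM, against 212 and 285 CPM. Its log2 fold change, 0.54 (SE 0.36), was the highest of the 36. That difference did not pass the test without the block or with it (edgeR adjusted p = 0.376).

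TPP1, a peptidase that takes tripeptides from the ends of proteins, was the hydrolase that came nearest to the threshold with the block. It had 457 and 457 CPM with CDH3-AS1 siRNA, against 688 and 806 CPM with control siRNA. The log2 fold change with the replicate block was -0.71 (SE 0.23, edgeR adjusted p = 0.0859), and it was -0.59 within batch 1 and -0.82 within batch 2. TPP1 was described after its values had been seen. CTSB, a cysteine protease and the lowest hydrolase by level, had 27.4 and 23.7 CPM with CDH3-AS1 siRNA, against 65.1 and 30.4 CPM with control siRNA. Its highest value was in the control library that holds muscle and fibroblast transcripts, and the log2 fold change was -0.88 (SE 0.46) with that library and -0.21 without it. The part of those transcripts in the CTSB level was not tested.

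Among the membrane proteins the median was 0.13, and its sign turned between batches (0.12 within batch 1 and -0.20 within batch 2). LAMP1, a main glycoprotein of the lysosomal membrane, had 1321 and 1746 CPM with CDH3-AS1 siRNA, against 968 and 1309 CPM with control siRNA (log2 fold change 0.43, SE 0.35). MCOLN1, a cation channel that releases calcium from lysosomes and the lowest membrane protein by level, had 115 and 112 CPM, against 106 and 72.0 CPM (0.36, SE 0.34). Neither passed the test. Without the control library of batch 1 the log2 fold change was 0.26 for LAMP1 and 0.69 for MCOLN1. For LAMP1 it ranged from 0.21 without the CDH3-AS1 siRNA library of batch 2 to 0.68 without the control library of batch 2, and without that control it was 0.12 for MCOLN1. SCARB2, the receptor that carries glucocerebrosidase to lysosomes, differed in opposite directions, by 0.79 on the log2 scale within batch 1 and -0.23 within batch 2.

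**Figure D3:**
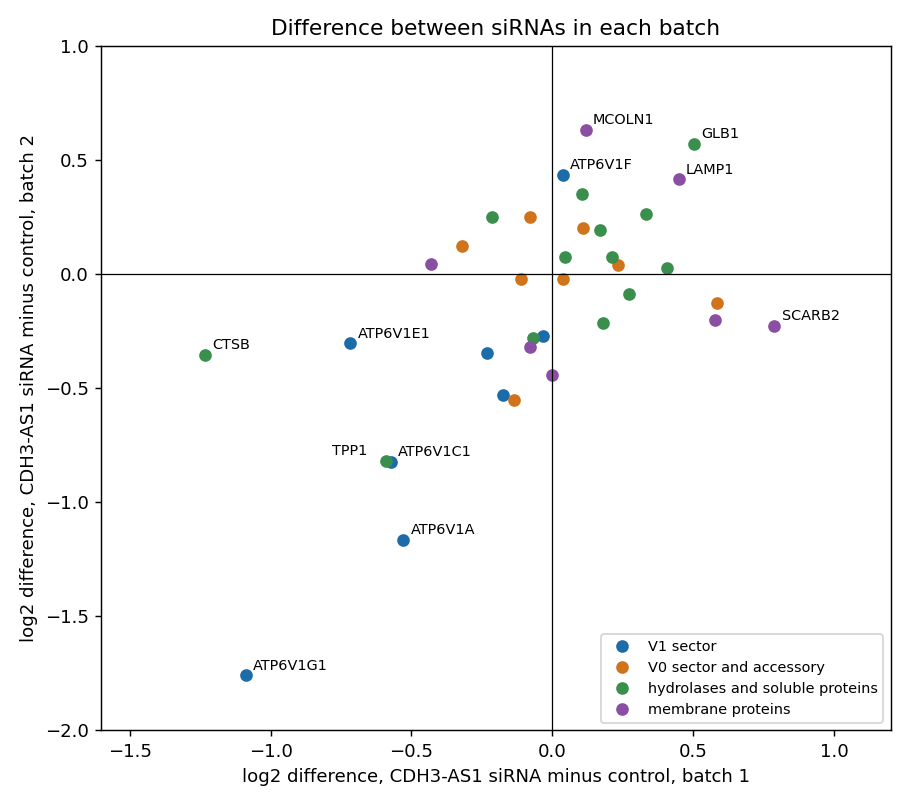
Log2 difference in CPM between CDH3-AS1 siRNA and control siRNA for each of the 36 genes, batch 1 on the horizontal axis and batch 2 on the vertical axis, coloured by sector. ATP6V1G1 lies lowest in batch 2 (-1.76) and, after CTSB, in batch 1 (-1.09), and 7 of the 8 V1 points are at the lower left.

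Over all 36 genes the median was 0.03. In both batches 14 (38.9%) were lower and 12 (33.3%) higher, against 27.8% and 26.5% of all genes tested. Their reads made up 2.09% and 2.28% of coding-sequence reads with CDH3-AS1 siRNA, against 2.05% and 2.48% with control siRNA. As a whole the genes did not differ beyond the spread between batches. Among the 26 genes with a listed promoter, CACGTG did not separate the genes either. The 9 genes with it had a median of 0.07 and a range from -1.48 to 0.43, and the 17 genes with a listed promoter without it a median of 0.07 and a range from -0.71 to 0.54. No promoter was listed for ATP6V1A, ATP6V1C1 or CTSB (-0.84, -0.76 and -0.88), and only 4 of the 8 V1 subunits had one. The 2 genes whose promoters hold GTCACGTGAC, printed above, differed in direction, ATP6V1G1 at -1.48 and MCOLN1 at 0.36.

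Between batches the genes varied more. With the siRNA as a covariate, edgeR called 1657 of all genes (15.8%), 997 higher and 660 lower in batch 2 than in batch 1, and 5 of the 36 (4 higher and 1 lower), a share near that of all genes. The like comparison between siRNAs is the model with the replicate block, which called 170 genes (1.62%) and 2 of the 36. Batch 2 was higher with both siRNAs for 22 of the 36, against 36.1% of all genes, and lower with both for 9, against 34.1%. The median log2 fold change of the 36 between batches was 0.31, against 0.01 for all genes. Melanocyte markers moved with the batch too, and summed to 32058 and 40732 CPM in batch 2, against 21727 and 23549 CPM in batch 1, with CDH3-AS1 siRNA and control siRNA in that order. Their part in the batch difference of lysosomal genes was not tested.

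ASAH1, acid ceramidase, which splits ceramide into sphingosine and fatty acid, had 1144 CPM with CDH3-AS1 siRNA and 1388 CPM with control siRNA in batch 2, against 521 and 545 CPM in batch 1. Its log2 fold change between batches was 1.24 (SE 0.22, edgeR adjusted p = 1.05e-06). CTSL, a cysteine protease, had 431 and 424 CPM in batch 2, against 228 and 172 CPM in batch 1 (1.11, SE 0.24, edgeR adjusted p = 1.34e-04). Both genes were higher in batch 2 with either siRNA, and their siRNA groups overlapped. RefSeq lists 6 numbered pseudogenes of CTSL, so its count is uncertain to the extent that reads were shared with them.

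ATP6V1C1 had 158 and 280 CPM in batch 2, against 72.5 and 108 CPM in batch 1 (1.25, SE 0.26, edgeR adjusted p = 5.95e-05). CD63 had 2688 and 3654 CPM in batch 2, against 2098 and 2102 CPM in batch 1 (0.58, SE 0.20, edgeR adjusted p = 0.0270), a call that DESeq2 did not make. ATP6V0B, a second proteolipid of the ring, was the gene called lower, with 207 and 211 CPM in batch 2, against 372 and 402 CPM in batch 1 (-0.89, SE 0.24, edgeR adjusted p = 0.00349). In each of these genes the batches did not overlap, which adds nothing to the calls because both rest on the same values. Without the control library of batch 2 the log2 fold change was 0.81 for ATP6V1C1 and 0.35 for CD63. With the batch alone in the model, edgeR called 3 of the 36 without the CDH3-AS1 siRNA library of batch 1, and 0 when any of the others was left out.

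**Figure D4:**
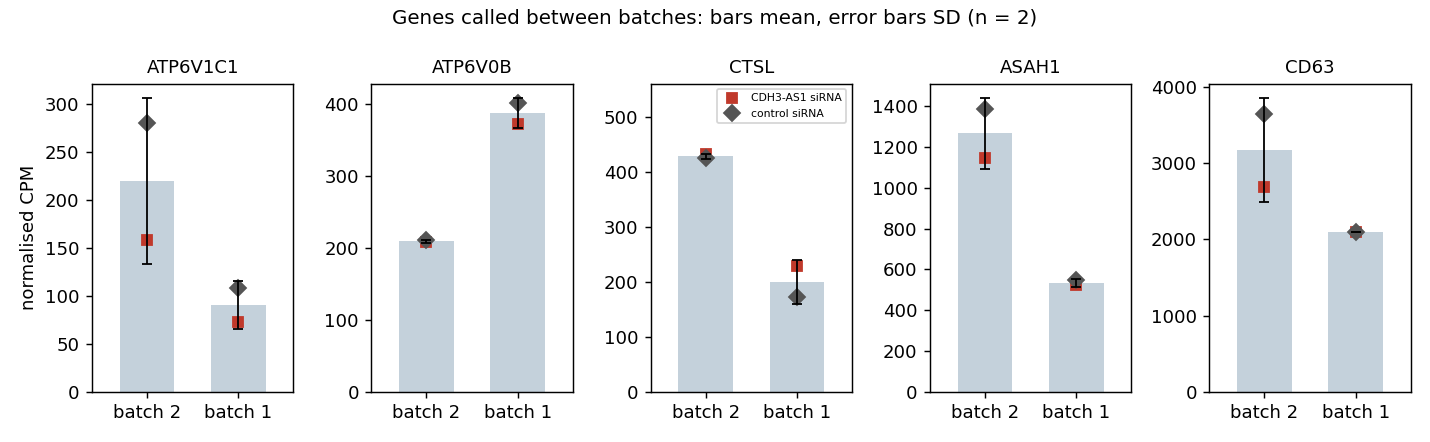
Normalised CPM of the 5 genes called between batches, batch 2 left and batch 1 right. Red squares are CDH3-AS1 siRNA, grey diamonds control siRNA, bars means and error bars SD (n = 2). ATP6V0B is lower in batch 2 and the other 4 are higher.

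The tables also count reads in untranslated regions. Of the reads in 5′ UTR and coding sequence of the 36 genes, the 5′ UTR took 0.812% and 2.52% with CDH3-AS1 siRNA, against 1.70% and 1.40% with control siRNA. The same share over all transcripts was 3.90% and 7.21%, against 6.19% and 5.13%. Summed, the 36 genes lay below the share of their library in all 4, and 28 to 31 of the 36 did so singly. That share pools the reads of all transcripts, and how many of all genes fall below it was not counted. A low share is therefore not shown to be particular to these genes. No 5′ UTR read was found in any library for 6 genes, PSAP, HEXA, GUSB, ATP6V1B2, ATP6V1F and CTSB. How many of all genes lack such reads was not counted. The 5′ UTR of the most-read transcript is short in ATP6V1B2 (26 bases), GUSB (30 bases), HEXA (42 bases) and ATP6V1F (49 bases). In the most-read transcript of PSAP the 5′ UTR is 30 bases long, about the length of a footprint, and 0 of 36818 reads in the deepest library allows a share of up to 0.00815%, taken as 3 reads of the total (upper 95% Clopper-Pearson limit 0.0100%). The 5′ UTR of CTSB is 682 bases long, but its few reads allow a share of up to 1.73% there on the same basis (Clopper-Pearson 2.11%).

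ATP6V1H had the highest 5′ UTR share of the 36 in 3 libraries, and ATP6V1D (12.5%) stood just above it in the CDH3-AS1 siRNA library of batch 2. It took 14.5% (95% Clopper-Pearson interval 12.2 to 17.0) and 12.2% (9.38 to 15.5) with CDH3-AS1 siRNA, against 19.5% (15.2 to 24.3) and 7.12% (5.77 to 8.67) with control siRNA. Those intervals cover counting error only. All 4 values lay above the share over all transcripts, and the controls alone spanned the range. For ATP6V1G1 the share was low and alike, 0.731% and 0.877% with CDH3-AS1 siRNA, against 0.865% and 0.637% with control siRNA.

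The 5′ UTR shares of a few genes differed between batches. The intervals of the batches did not overlap with either siRNA in 6 of the 36, of which 5 were higher in batch 2 (ATP6V0B, ATP6V0C, CTSA, CTSZ and MCOLN1) and 1 was lower (TPP1), while the other 30 showed no such separation. The intervals cover counting error only, and the same count over all genes was not made. The number is thus no result particular to these genes. That of ATP6V0C was 9.44% (8.29 to 10.7) with CDH3-AS1 siRNA and 4.71% (4.12 to 5.36) with control siRNA in batch 2, against 0.664% (0.466 to 0.919) and 0.943% (0.569 to 1.47) in batch 1. ATP6V0B had 7.73% and 5.25% in batch 2, against 0.339% and 0.265% in batch 1, and CTSZ, a lysosomal carboxypeptidase, 6.52% and 5.42%, against 0.835% and 1.41%. TPP1 had 0.602% and 0.589% in batch 2, against 1.87% and 1.45% in batch 1. These genes were picked after the shares had been seen, and the cause was not tested.

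Lysosomal genes outside the 36 were read from lists of further members of the pathway. Of 33 other hydrolases tested, 19 were higher and 5 lower with CDH3-AS1 siRNA in both batches (26.5% and 27.8% of all genes), with a median log2 fold change of 0.19. With the replicate block, 1 of the 33 was called, against 1.62% of all genes. It was LGMN, which encodes legumain, an asparaginyl protease. LGMN had 357 and 199 CPM with CDH3-AS1 siRNA, against 137 and 118 CPM with control siRNA. Both libraries lay above both controls, and the log2 fold change was 1.13 (SE 0.39, edgeR adjusted p = 1.00) without and 1.07 (SE 0.25, edgeR adjusted p = 0.00367) with the replicate block, but limma with the block did not make the call. Without the CDH3-AS1 siRNA library of batch 1 it was 0.65.

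Of 16 tested MiT/TFE factors and genes of lysosomal mTORC1 signalling, 11 were lower and 0 higher with CDH3-AS1 siRNA in both batches (median -0.30). Over all genes tested, 27.8% were lower in both and 26.5% higher in both. None of the 16 was called with or without the block. MITF had 584 and 890 CPM with CDH3-AS1 siRNA, against 595 and 1219 CPM with control siRNA, so it was nearly level in batch 1. Other lysosomal membrane proteins (24 tested, median 0.17), sorting factors (19 tested, median -0.10), pump assembly factors (9 tested, median -0.14) and other pump isoforms (3 tested, median 0.22) held no call either. Among the assembly factors, 2 of 9 (22.2%) were lower in both batches and 0 higher, against the same shares of all genes.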

How the data were processed

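Ribosome footprints of 4 libraries were analysed. Per the file headers, the deposited tables hold, per transcript, read counts and RPKM values of the coding sequence and of each UTR. The submitters' processing notes name hg38 and DESeq2. The sources used here do not give the aligner, counting tool, annotation release or use of strand. RNA-seq was not analysed here, so values are footprint levels and not translational efficiency.

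Coding-sequence counts were summed by gene name and filtered with edgeR's filterByExpr (minimum count 10, total 15), which left 10469 genes. These were tested with edgeR 4.0.16 in R 4.3.3 (TMM, quasi-likelihood, Benjamini-Hochberg at 0.05 over all of them). Log2 differences of genes within a batch were taken from log2 CPM with a prior count of 2. The main model had no covariate. The labels give same-numbered libraries a shared batch, and across genes their deviations had r = 0.58. The numbers therefore pair the libraries, and the model with the replicate block is given where it changes a call. DESeq2 1.42.0 and limma 3.58.1 (on log2 of the authors' RPKM plus a pseudocount) were alternatives. Biological variation between libraries (edgeR's coefficient) was 20.2% with the block, against 35.9% in the main model. Library totals were 2034854 to 6759850 reads, and coding sequence took 90.5% to 93.9%. Replicates differed by far more than sampling noise (chi-square per degree of freedom 34.5 for CDH3-AS1 siRNA and 41.9 for control siRNA). The scripts were tested on simulated data. Genes given with values in every library were those called, the 3 highest and 3 lowest log2 fold changes of like sign in both batches with at least 20 reads per library, and the highest and lowest gene of each sector. ATP6V1E1, TPP1 and ATP6AP1 fell outside this rule and were added with their values known. From other lists, at most 3 genes per direction called between siRNAs were named by rule. TCIRG1, MITF, the pump isoforms with few reads and the genes named between batches fell outside that rule. The 36 genes, the lists and the tests were chosen with earlier results of these data known. Gene positions and promoters come from RefSeq, GRCh38.p14, the same assembly as hg38.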

Additional observations from a re-analysis of the deposited data

How the results depend on the processing

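No called value changed direction under any alternative run, but 2 medians did. Of the 36 genes, 0 were called between siRNAs in every setting without the block, leaving out each library included (0 to 0). With the replicate block 2 were called (ATP6V1G1 and ATP6V1A), and 2 again without TMM, against 1 (ATP6V1G1) each in DESeq2 with the block, in limma with the block and with the most-read transcript and the block. The replicate block changed no other call among the 36. Settings without TMM or with the most-read transcript under the block were chosen after seeing the data. The log2 fold change between siRNAs ranged from -1.76 to -1.05 for ATP6V1G1, from -1.07 to -0.64 for ATP6V1A and from -0.79 to -0.58 for TPP1. The V1 median ranged from -0.49 to -0.40 with all libraries and from -0.61 to -0.20 with a library left out, the smallest without the control of batch 2. GLB1 kept its sign but ranged from 0.28 to 0.78. The median of the 36 between siRNAs, 0.03, ranged from -0.06 to 0.13, below 0 without TMM and with either the batch 2 library of CDH3-AS1 siRNA or the batch 1 control left out. Over all genes, the call counts between siRNAs were 0 in the main model, 170 with the block, 57 in DESeq2 with the block, 90 in limma with the block, 2 in DESeq2, 52 with no filter and 73 without control siRNA replicate 2.

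Between batches, 5 of the 36 were called, against 3 with no siRNA covariate, 4 in DESeq2, 7 with the most-read transcript and 0 to 3 with a library left out. Over all genes these counts were 1657, against 538 with no covariate and 694 in DESeq2. The V1 median between batches, 0.32, ranged from -0.02 without control siRNA replicate 2 to 0.61. The causes were not tested. A model with the block and a library left out has no residual degrees of freedom. Depth limits CTSB most, with 60 to 173 reads.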

Other observations

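Between batches, 4 of 19 sorting genes outside the 36 were called higher in batch 2 and 2 lower, against 15.8% of all genes called in either direction. GNPTAB, which makes the mannose 6-phosphate tag that routes hydrolases to lysosomes, had 383 CPM with CDH3-AS1 siRNA and 462 CPM with control siRNA in batch 2, against 152 and 131 CPM in batch 1 (log2 fold change 1.57, edgeR adjusted p = 2.14e-08). SORT1 (1.17) and IGF2R (0.87), receptors that carry hydrolases to lysosomes, and VPS35 (0.72), of the retromer that recycles such receptors, were higher in batch 2 as well, and CLN6 (-0.88) and VPS16 (-0.89) were lower. Of the 33 other hydrolases, 8 were called higher and 1 lower in batch 2, against 997 higher and 660 lower of all 10469 genes. CTSK, a cysteine protease best known from osteoclasts, had 707 and 686 CPM in batch 2, against 374 and 282 CPM in batch 1. MITF was called higher in batch 2 too (log2 fold change 0.82, edgeR adjusted p = 0.00299).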
